A study of Mus musculus with 6 samples.

Results

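Macrophage, lymphocyte and complement genes were followed in bulk RNA-Seq of whole skeletal muscle. They are 44 listed symbols, chosen by cell type and function with earlier results of these data known. They cover markers of leukocytes in general, of macrophages and their states, and of T, B, NK cells and neutrophils. The first components and a regulator of the complement cascade are included as well. Of the 44, 43 were among the 24421 genes of the deposited tables (Trbc2, a T cell receptor constant gene, is not a row there), and 34 were among the 14180 genes with enough counts to be tested. The muscle is GP, the gastrocnemius and plantaris of the hindlimb, taken from male mice of 5 months of age, 1 mouse per library. The labels give their strain background as B6C3F1, and the study's methods add that founders were mated to C57BL/6N mice and their offspring crossed with the Cre line. The 3 libraries labelled Ctrl come from Net39 fl/fl mice without Cre, and the 3 labelled cKO from HSACreERT2;Net39 fl/fl mice. Both groups carry the floxed Net39 allele and both received tamoxifen, 3 months before the muscle was taken. The HSA promoter drives the inducible Cre in skeletal muscle fibres, so the immune cells in these muscles are not the cells in which the deletion is made.

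Net39, which encodes a protein of the nuclear envelope in muscle, is listed in the tables as Ppapdc3. It had 310, 321 and 217 counts in the Ctrl-labelled libraries and 5365, 4340 and 6080 in the cKO-labelled ones, a log2 difference of 4.22 (SE 0.17, adjusted p = 0.000161). The targeted gene was therefore low in the libraries labelled as controls and high in those labelled as deleted. Samples were grouped by their labels all the same, so each direction below is one between labelled groups, not between known genotypes.

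Resident macrophages lie between the fibres and around the vessels of healthy muscle, and after fibre damage monocytes enter from the blood and become macrophages that clear debris. Macrophages are also a main source of C1q, the recognition part of the classical complement pathway, whereas other components such as C3, C4 and the C1 inhibitor are made by many cells, fibroblasts included. In RNA from whole muscle, fewer cells of a type and less RNA per cell cannot be told apart.

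Libraries held 33860001 to 48839910 counts. Muscle fibre genes dominated each of them, with Acta1, the skeletal actin, between 29977 and 40531 CPM (the usual library-size-scaled unit, here after TMM normalization, and the unit of every level below unless another is named). The TMM factor was 1.08 to 1.11 for Ctrl 1 to 3 and 0.865 to 0.983 for cKO 1 to 3. All adjusted p-values are from edgeR's quasi-likelihood test with Benjamini-Hochberg adjustment over the genes tested, which are 14180 with all libraries and 14361 to 14453 with 1 left out, and log2 fold changes are the cKO-labelled libraries over those labelled Ctrl. The median of all genes tested was -0.02, with quartiles of -0.31 and 0.23. With total counts in place of TMM that median was -0.27.

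Most macrophage genes and the C1q chains of complement were lower in the cKO-labelled libraries. C3 (log2 fold change -0.28, SE 0.15) and C4b (-0.60, SE 0.29) did not pass the test. The estimate for C4b was within the range of the members that passed, such as Mrc1 (-0.54, SE 0.15). All 34 tested members had a negative log2 fold change, from -4.16 for Gpnmb to -0.25 for Aif1, with a median of -0.90. In sum over all members in the tables, the Ctrl-labelled libraries reached 578 to 640 CPM and the cKO-labelled ones 323 to 395 CPM. The fall passed an adjusted p under 0.05 for 24 of the 34, and no member rose (0 at an unadjusted p under 0.05 in edgeR, and 0 in DESeq2's Wald test). Among all genes tested, 11.8% passed in that direction and 12.6% passed in the other. With a fold over 2 as well, the study's own threshold, 7 members passed (Lyz2, Itgax, Trem2, Gpnmb, Spp1, Tlr2 and Tlr4), against 3.92% of all genes tested in that direction. The 3 libraries labelled Ctrl all lay above the 3 labelled cKO for 29 of the 34, against 21.9% of all genes tested. Because the members were chosen with earlier results of these data known, these shares only describe them. The expression filter was reached in all 6 libraries by 30 of the 34. The other 4 were Itgal, Itgax, Fcgr1 and Trem2. Each reached it in all 3 Ctrl-labelled libraries, but in only 1 labelled cKO for Itgax and 2 for the rest. The Ctrl-labelled libraries alone thus admitted these 4 to the test, so the calls of Itgax and Trem2 are a description. Requiring 10 counts in every library leaves these 4 untested. There, 22 members passed (12.1% of all genes tested in that direction), 6 of them with a fold over 2 (3.37%).

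**Figure D1:**
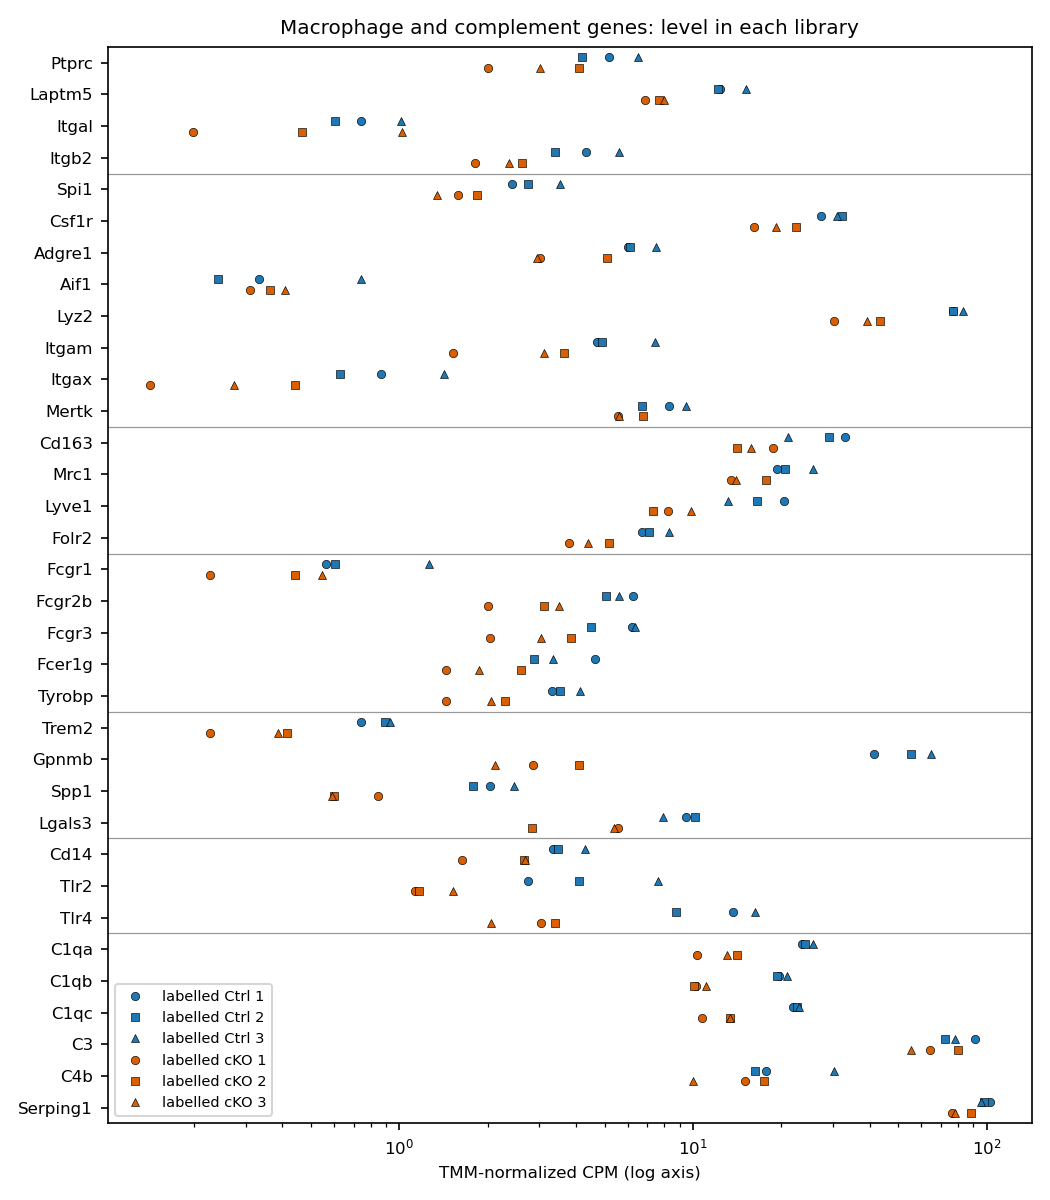
Level of each of the 34 tested members in each library, in TMM-normalized CPM on a log axis; circles, squares and triangles are replicates 1, 2 and 3, blue points libraries labelled Ctrl, orange points libraries labelled cKO, and grey lines separate the roles from leukocyte identity (top) to complement (bottom). The groups lie apart for 29 genes, with the widest gap at Gpnmb.

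**Figure D2:**
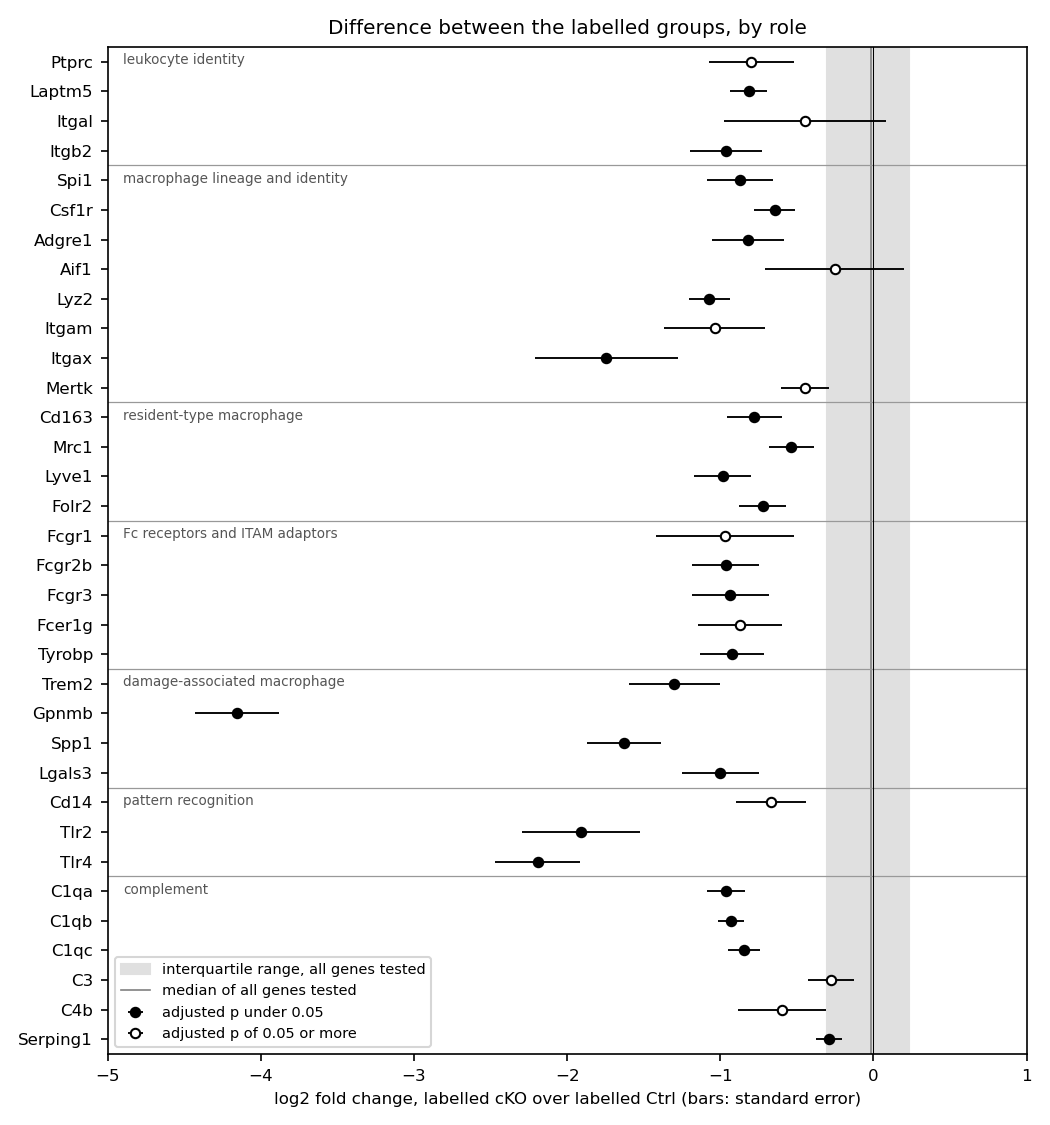
Log2 fold change of each tested member, labelled cKO over labelled Ctrl, with its standard error (n = 3 libraries per group); filled points passed an adjusted p under 0.05. The grey band is the interquartile range of all 14180 genes tested (-0.31 to 0.23), and Gpnmb, Tlr4 and Tlr2 lie farthest to the left of it.

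The number passing depended on single libraries. It was 13 without Ctrl 1 (where 5.63% of all genes tested passed in that direction), 14 without Ctrl 2 (6.57%), 17 without Ctrl 3 (10.6%), 15 without cKO 1 (6.18%), 28 without cKO 2 (12.5%) and 11 without cKO 3 (5.46%), so the share of all genes moved too. In all, 9 members passed in each of the 6 fits that left out 1 library: Laptm5, Lyz2, Lyve1, Gpnmb, Spp1, Tlr4, C1qa, C1qb and C1qc. With a fold over 2, 4 passed without cKO 1 (2.75% of all genes tested) and 17 without cKO 2 (4.75%). Total counts in place of TMM gave 23 past both limits (7.21%). In every one of these fits, each member that passed was lower in the cKO-labelled libraries.

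Of the genes that mark leukocytes in general, 2 of 4 passed. Laptm5, a lysosomal membrane protein of blood cells, was at 12.3, 12.1 and 15.2 CPM in the Ctrl-labelled libraries and at 6.89, 7.66 and 7.95 CPM in the cKO-labelled ones. Each library labelled Ctrl was well above each labelled cKO, and Laptm5 fell by 0.82 on the log2 scale (SE 0.12, adjusted p = 0.00603). Itgb2, the beta subunit shared by the leukocyte integrins, was at 4.32, 3.38 and 5.61 against 1.81, 2.62 and 2.36 CPM. Its groups did not overlap either (log2 fold change -0.96, SE 0.24, adjusted p = 0.0263), although the call was lost without Ctrl 1, Ctrl 3, cKO 1 or cKO 3, with an adjusted p of up to 0.0765. Ptprc, which encodes CD45, the phosphatase carried by all white blood cells, was at 5.18, 4.20 and 6.48 against 2.00, 4.08 and 3.02 CPM. Only a narrow gap separated cKO 2 from Ctrl 2, and the difference of -0.80 (SE 0.28) had an adjusted p of 0.0772, or 0.0320 without cKO 2. Itgal, the integrin alpha subunit most abundant on lymphocytes, overlapped between the groups (log2 fold change -0.45, SE 0.53, adjusted p = 0.571), and leaving out a library moved it from -1.23 (without cKO 3) to -0.07 (without cKO 1).

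Among 8 genes of macrophage lineage and identity, 5 passed. Lyz2, the lysozyme of macrophages, had the highest level per kb of exon of the tested members in the Ctrl-labelled libraries, 59.9 CPM per kb. In the cKO-labelled ones it was at 28.5 CPM per kb, below Serping1 at 34.8. Its libraries were at 76.7, 76.8 and 83.2 against 30.2, 43.2 and 39.2 CPM, and it fell 2.1-fold (log2 fold change -1.07, SE 0.13, adjusted p = 0.00354). The paralog Lyz1, which can share reads with it, moved the same way (243, 299 and 225 counts against 51, 82 and 111, log2 fold change -1.68, SE 0.21, adjusted p = 0.00369), so the split of reads between the lysozyme genes is uncertain. Csf1r, the receptor for the growth factor on which macrophages depend, was at 27.2, 32.2 and 31.0 against 16.1, 22.5 and 19.2 CPM. The groups were apart and Csf1r fell 1.56-fold (log2 fold change -0.64, SE 0.13, adjusted p = 0.0157). That call was lost without Ctrl 2 (adjusted p = 0.0561) or without cKO 3 (adjusted p = 0.0532).

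Adgre1, which encodes the macrophage surface protein F4/80, was at 6.0, 6.11 and 7.47 against 3.02, 5.12 and 2.95 CPM. cKO 2 again came closest to the Ctrl-labelled libraries, and the log2 fold change was -0.82 (SE 0.24, adjusted p = 0.0433). Leaving out any library but cKO 2 lost the call, with an adjusted p of up to 0.126 (without cKO 3). Itgax, which encodes CD11c, was at 0.868, 0.627 and 1.42 against 0.141, 0.441 and 0.273 CPM, low in all libraries and lowest in cKO 1. Its log2 fold change was -1.74 (SE 0.47, adjusted p = 0.0358), with the call lost without Ctrl 1, Ctrl 3, cKO 1 or cKO 3 (adjusted p up to 0.108). Itgam, which encodes CD11b of monocytes, macrophages and neutrophils, was at 4.72, 4.90 and 7.44 against 1.52, 3.64 and 3.11 CPM. The groups were apart, yet the difference of -1.04 (SE 0.33) had an adjusted p of 0.0591, and of 0.0430 without cKO 2. Mertk, a receptor for dying cells, did not pass (log2 fold change -0.45, SE 0.16, adjusted p = 0.0798, groups overlapping). Aif1, at 0.241 to 0.738 CPM, changed sign to 0.34 without Ctrl 3. Of the genes in this group, Csf1r shares 873 exon bases with Hmgxb3 on the other strand and Itgam shares 3450 with Gm49368 on the same strand, and whether the counting used strand is not given.

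Spi1 encodes PU.1, the transcription factor that sets up the macrophage lineage and binds DNA at the PU-box. It was at 2.43, 2.75 and 3.53 CPM in the Ctrl-labelled libraries and at 1.58, 1.84 and 1.34 CPM in the cKO-labelled ones. All 3 of the former were higher, with a log2 fold change of -0.87 (SE 0.22, adjusted p = 0.0273), and the call was lost without Ctrl 2, Ctrl 3, cKO 1 or cKO 3 (adjusted p up to 0.0886). Promoters of the members, from 250 bases before to 50 after the RefSeq start (GRCm38.p6), were searched for the PU-box letters GAGGAA on both strands. They were found in 12 of 26 promoters (46.2%) that belong to 22 tested members, and in 28.3% of all 32851 promoters in the table. The windows below run 5′ to 3′ along the gene's own strand, with the PU-box or its reverse complement TTCCTC in capitals. They are from Ptprc, Itgam and Trem2, and from those genes with a match whose call held in every fit (Laptm5, C1qb, C1qc and Spp1). The other genes whose call held in every fit (Lyz2, Lyve1, Gpnmb, Tlr4 and C1qa) had no match or no promoter among the 26 searched. A match is only a match of letters.
Ptprc, chr1:138175446-138175475, minus strand: tgttttcctttaGAGGAAaattgagacgaa
Laptm5, chr4:130913266-130913295, plus strand: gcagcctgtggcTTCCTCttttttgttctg
Itgam, chr7:128062544-128062573, plus strand: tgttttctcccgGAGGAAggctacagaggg
Spp1, chr5:104434986-104435015, plus strand: acaaaaccagagGAGGAAgtgtaggagcag
Trem2, chr17:48346349-48346378, plus strand: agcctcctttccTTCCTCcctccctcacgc
C1qb, chr4:136886213-136886242, minus strand: gcagcaggatggGAGGAAcagaggggtgat
C1qc, chr4:136893090-136893119, minus strand: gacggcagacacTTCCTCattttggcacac

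All 4 markers of resident-type macrophages passed, with log2 fold changes of -0.54 to -0.99 and non-overlapping groups. Lyve1, a hyaluronan receptor of perivascular macrophages that lymphatic endothelium also carries, was at 20.5, 16.6 and 13.2 against 8.21, 7.30 and 9.84 CPM. It fell 1.98-fold (log2 fold change -0.99, SE 0.18, adjusted p = 0.0113). Cd163, the scavenger receptor for haemoglobin bound to haptoglobin, was at 33.1, 29.0 and 21.1 against 18.7, 14.1 and 15.8 CPM (log2 fold change -0.78, SE 0.18, adjusted p = 0.0223). For both of these genes Ctrl 3 was the lowest of its group, whereas it was the highest of its group for 26 of the 34 members. Folr2, a folate receptor of resident macrophages, was at 6.69, 7.09 and 8.26 against 3.78, 5.17 and 4.39 CPM (log2 fold change -0.72, SE 0.16, adjusted p = 0.0175). Mrc1, the mannose receptor CD206, was at 19.3, 20.6 and 25.7 against 13.5, 17.7 and 14.0 CPM (log2 fold change -0.54, SE 0.15, adjusted p = 0.0391), the smallest fall of the 4. The calls of Cd163 (without Ctrl 1, Ctrl 2 or cKO 3, adjusted p up to 0.0752), Folr2 (without Ctrl 2 or cKO 3, up to 0.0593) and Mrc1 (all but cKO 2, up to 0.112) were lost in some fits that left out a library, while that of Lyve1 was kept in all 6.

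Fc receptors, through which macrophages bind antibody, and the adaptors that carry their signal lay within a narrow range of -0.97 to -0.87, and 3 of 5 passed. Fcgr2b, the inhibitory receptor, was at 6.23, 5.07 and 5.58 against 2.00, 3.12 and 3.50 CPM (log2 fold change -0.96, SE 0.22, adjusted p = 0.0206, or 0.0754 without Ctrl 1). Fcgr3, an activating receptor, was at 6.21, 4.51 and 6.37 against 2.03, 3.84 and 3.04 CPM (log2 fold change -0.93, SE 0.25, adjusted p = 0.0362). Tyrobp, the adaptor DAP12 that also serves TREM2, was at 3.32, 3.52 and 4.13 against 1.44, 2.29 and 2.05 CPM (log2 fold change -0.92, SE 0.21, adjusted p = 0.0208). In each of the 3, cKO 1 was the lowest library. The call of Fcgr3 was lost without Ctrl 1, Ctrl 3, cKO 1 or cKO 3 (adjusted p up to 0.111) and that of Tyrobp without Ctrl 1, Ctrl 2 or cKO 3 (up to 0.0595). Fcer1g, the common gamma chain, had a log2 fold change of -0.87 (SE 0.27) and an adjusted p of 0.0565, and of 0.0307 without cKO 2. Fcgr1, the high-affinity receptor, had one of -0.97 (SE 0.45, adjusted p = 0.157) at 0.226 to 1.26 CPM. Their groups did not overlap.

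Genes of macrophages in damaged or lipid-laden tissue showed the widest range, and all 4 passed. Gpnmb, a glycoprotein of lysosome-rich macrophages that other cell types also make, was at 41.3, 55.3 and 64.6 CPM in the Ctrl-labelled libraries and at 2.85, 4.10 and 2.11 CPM in the cKO-labelled ones. No other member differed so far: it fell 17.8-fold (log2 fold change -4.16, SE 0.27, adjusted p = 0.000627), and the call held without any one library. The gene lies on chromosome 6, from 49036546 to 49070929 on the plus strand of GRCm38. Spp1, which encodes osteopontin, a secreted protein of macrophages and other cells, was at 2.04, 1.79 and 2.46 against 0.847, 0.597 and 0.591 CPM. It fell 3.09-fold (log2 fold change -1.63, SE 0.24, adjusted p = 0.00570) in groups that were apart, and 309 of its exon bases are shared with Gm42793 on the same strand.

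Trem2, the lipid-sensing receptor of phagocytes, had few counts: 0.741, 0.893 and 0.930 against 0.226, 0.415 and 0.386 CPM, with 8, 16 and 17 counts in the cKO-labelled libraries. All libraries labelled Ctrl were higher (log2 fold change -1.30, SE 0.30, adjusted p = 0.0215). Lgals3, the galectin of phagocytosing cells, was at 9.45, 10.2 and 7.93 against 5.56, 2.83 and 5.39 CPM (log2 fold change -1.0, SE 0.25, adjusted p = 0.0292), with cKO 2 the lowest library, unlike most members. Calls were lost without Ctrl 1, Ctrl 2, cKO 1 or cKO 3 for Trem2 (adjusted p up to 0.0707) and without Ctrl 1, Ctrl 2 or cKO 3 for Lgals3 (up to 0.0897).

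Among genes of pattern recognition, both toll-like receptors passed, with the largest log2 fold changes of the members after Gpnmb. Tlr4, the receptor for bacterial lipopolysaccharide, was at 13.7, 8.76 and 16.3 against 3.05, 3.40 and 2.05 CPM. Its groups were far apart, with a 4.57-fold fall (log2 fold change -2.19, SE 0.28, adjusted p = 0.00369) that was kept without any one library. Tlr2, the receptor for bacterial lipoproteins, was at 2.73, 4.10 and 7.60 against 1.13, 1.17 and 1.52 CPM. The libraries labelled Ctrl were spread widely, with Ctrl 3 the highest, and the log2 fold change was -1.91 (SE 0.38, adjusted p = 0.0143, or 0.0531 without cKO 1). Cd14, the coreceptor that hands lipopolysaccharide to TLR4, differed less (3.35, 3.47 and 4.29 against 1.64, 2.65 and 2.68 CPM). It did not pass (log2 fold change -0.67, SE 0.23, adjusted p = 0.0719), although its groups did not overlap.

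To set these differences against one macrophage gene within the same muscle, each member was divided by Csf1r library by library. Of the 33 members compared, 26 had a mean log2 ratio that differed by less than 0.5 between the labelled groups, and for 10 the ratios did not overlap. The CPM ratio of Gpnmb to Csf1r, which is not per length, was 1.52, 1.71 and 2.08 in the Ctrl-labelled libraries and 0.177, 0.182 and 0.11 in the cKO-labelled ones, a change in log2 ratio of -3.53. Tlr4 went from 0.503, 0.272 and 0.526 to 0.189, 0.151 and 0.106 (change -1.52). The ratios of Tlr2 (-1.15), Spp1 (-0.98) and Trem2 (-0.71) also lay apart. Lyz2 (-0.43), C1qa (-0.32), Tyrobp (-0.29) and C1qc (-0.20) had smaller changes, with ratios apart as well. Ratios of the resident-type genes other than Lyve1 differed little, with changes of -0.11 for Cd163, -0.08 for Folr2 and 0.12 for Mrc1 and overlapping ratios. Serping1 ran the other way (change 0.36, ratios apart). So did Aif1 (0.53), C3 (0.37), Mertk (0.21) and C4b (0.08), with overlapping ratios. These ratios are a description, since an exact permutation test of 3 libraries against 3 cannot give a p below 0.1.

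**Figure D3:**
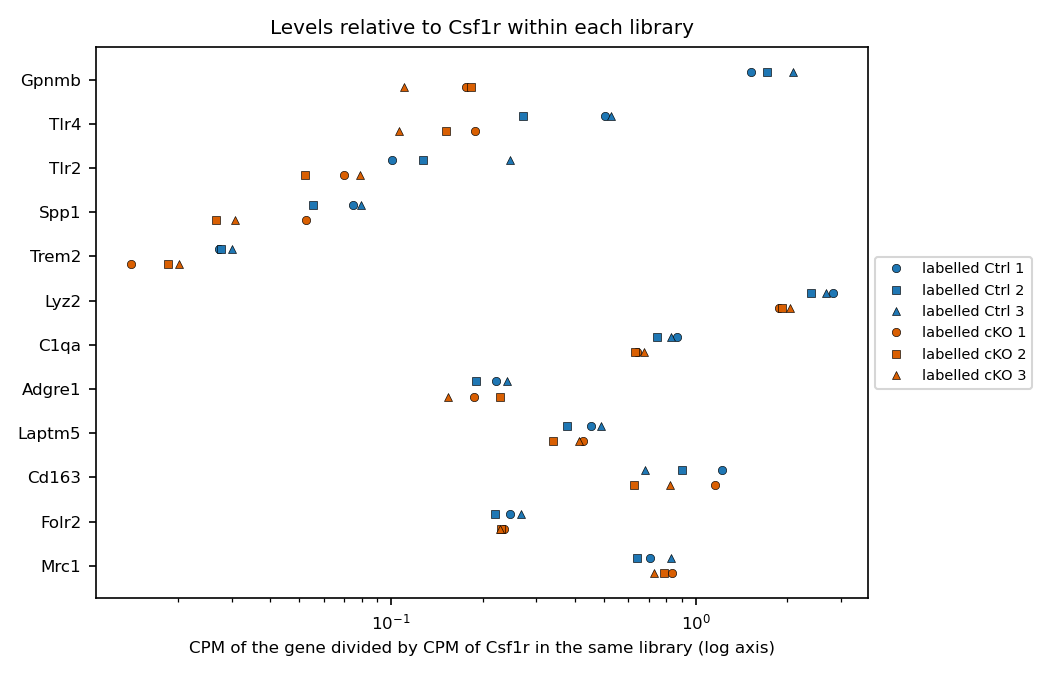
CPM of 12 members divided by the CPM of Csf1r in the same library, on a log axis; symbols and colours as in the plot of levels. Gpnmb moves from above 1 in the Ctrl-labelled libraries to below 0.2 in the cKO-labelled ones, whereas Cd163, Folr2 and Mrc1 overlap.

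In the complement group, the 3 chains of C1q fell together, and C3 and C4b did not pass. C1q binds antibody, dying cells and debris and starts the classical pathway. Its genes lie side by side on the minus strand of chromosome 4 of GRCm38, C1qb from 136880129 to 136886187, C1qc from 136889804 to 136893065 and C1qa from 136895917 to 136898803. C1qa was at 23.5, 24.0 and 25.7 CPM in the Ctrl-labelled libraries and at 10.4, 14.2 and 13 CPM in the cKO-labelled ones. C1qb was at 19.7, 19.3 and 20.9 against 10.3, 10.1 and 11.1 CPM. C1qc was at 21.9, 22.6 and 22.9 against 10.8, 13.4 and 13.4 CPM. All 3 genes were far from overlapping. C1qb was tight within both groups, while C1qa and C1qc varied more among the cKO-labelled libraries (SD 1.96 and 1.51 CPM). The log2 fold changes were -0.96 for C1qa (SE 0.12, adjusted p = 0.00394), -0.93 for C1qb (SE 0.08, adjusted p = 0.00155) and -0.84 for C1qc (SE 0.11, adjusted p = 0.00365), and each call was kept without any one library. Per kb of exon, C1qa stood at 23.5 CPM in the Ctrl-labelled libraries, C1qb at 18.4 and C1qc at 11.6. The C1qb and C1qc promoters held a PU-box (sequences given with Spi1), and they were also the only member promoters with the M-box or E-box letters TCATGTG or TCACGTG, searched on both strands (2 of 26, 7.69%, against 7.40% of all promoters).

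C3, the central component on which all complement pathways meet, was at 91.1, 72.4 and 77.9 against 64.2, 80.1 and 55.2 CPM. The groups overlapped through cKO 2 and the difference of -0.28 (SE 0.15) had an adjusted p of 0.221, or 0.0489 without cKO 2. C4b, the C4 gene of the classical pathway, overlapped too (log2 fold change -0.60, SE 0.29, adjusted p = 0.168). Its paralog C4a had 8 to 21 counts per library. Serping1, the C1 inhibitor that stops the first step of the cascade, was at 103, 97.9 and 96.1 against 76.1, 88.4 and 78.2 CPM. It fell by 0.29 on the log2 scale (SE 0.08, adjusted p = 0.0425), a call that leaving out any library but cKO 2 lost (adjusted p up to 0.134).

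Of 30 further complement genes, 21 were tested with a median of -0.21, and 14 had a negative log2 fold change. Of the 21, 4 passed, all lower in the cKO-labelled libraries, against 11.8% of all genes tested in that direction. They were properdin (Cfp, log2 fold change -0.71, SE 0.13, adjusted p = 0.00942), which stabilises the alternative pathway's convertase, the C3a receptor C3ar1 (-1.0, SE 0.20, adjusted p = 0.0149), the C1s protease C1s1 (-0.31, SE 0.08, adjusted p = 0.0350) and the C5a receptor C5ar1 (-0.96, SE 0.28, adjusted p = 0.0468), which was named after its value was seen. Properdin and both receptors are known from myeloid cells. The call of C3ar1 was lost without cKO 3 (adjusted p = 0.0561) and those of C1s1 (up to 0.0998) and C5ar1 (up to 0.138) in 5 of the 6 fits each.

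**Figure D4:**
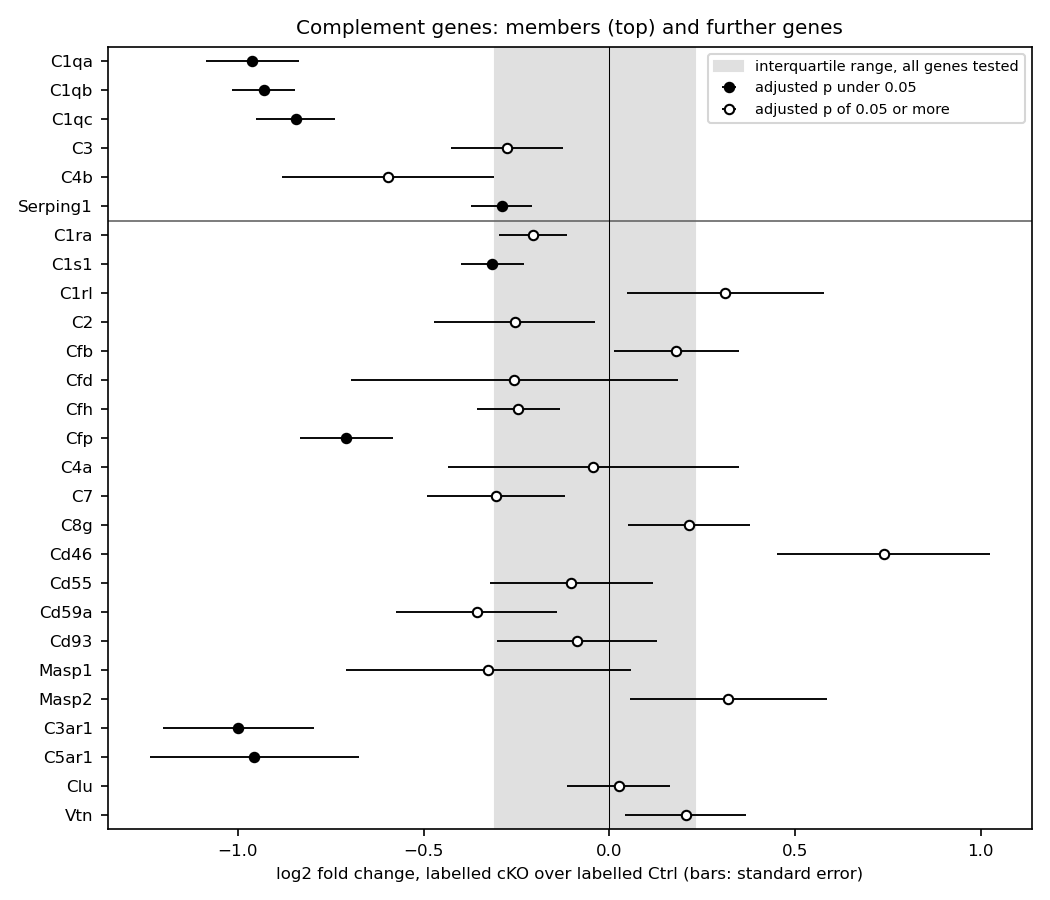
Log2 fold change with its standard error (n = 3 libraries per group) for the 6 complement members (above the line) and the 21 further complement genes tested (below it), labelled cKO over labelled Ctrl; filled points passed an adjusted p under 0.05. The grey band is the interquartile range of all genes tested. Points left of it include the C1q chains, Cfp, C3ar1, C5ar1 and, without passing, C4b. C3 and Serping1 lie inside it.

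Lymphocyte and neutrophil members were at or near the limit of detection, and none passed the expression filter. With no filter, 0 of the 9 passed in edgeR (0 at an unadjusted p under 0.05, lowest adjusted p 0.213), with 4 lower and 5 higher in the cKO-labelled libraries, and 0 of the 7 with an adjusted p in DESeq2's Wald test. Cd3e, a chain of the T cell receptor complex, had 8, 13 and 7 counts in the Ctrl-labelled libraries and 3, 16 and 8 in the cKO-labelled ones. Cd4 had 6, 5 and 8 against 4, 8 and 3 counts, and Cd8a had at most 2 counts in any library. Foxp3, the factor of regulatory T cells, had 1, 4 and 3 against 2, 3 and 7 counts, in exons it shares with Ccdc22 and other genes. The B cell genes Cd79a and Ms4a1 had at most 5 and 4 counts, and Nkg7, of cytotoxic and NK cells, at most 6. The neutrophil genes S100a8 (2, 4 and 1 against 2, 8 and 2 counts) and S100a9 (4, 3 and 5 against 3, 6 and 7 counts) were as low. In counts, neither labelled group lay wholly above the other for any of the 9 genes, with ties at 1 count for Ms4a1 and at 3 for Cd79a. A count of 0 allows up to 3 counts, which is 0.0682 to 0.0846 CPM in these libraries (counting error only). In sum, the T, B and NK members came to 0.587 to 0.766 CPM in the Ctrl-labelled libraries and 0.452 to 0.935 in the cKO-labelled ones. No difference was seen at counts this low, which does not exclude one.

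**Figure D5:**
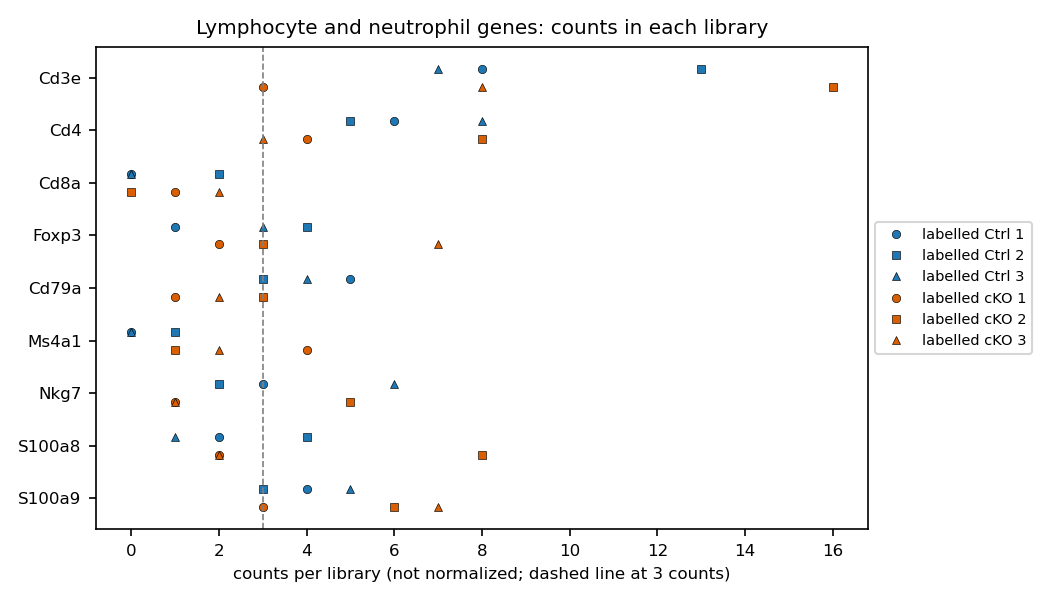
Counts per library (not normalized) of the 7 lymphocyte and 2 neutrophil members in the tables; blue points are libraries labelled Ctrl and orange points libraries labelled cKO, with the dashed line at 3 counts. No gene passes 16 counts in any library, and the groups lie among each other.

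Wider lists of the same cell types were read next. Of 40 further macrophage genes, 38 were tested, with a median of -0.69. Of the 38, 17 passed, all lower in the cKO-labelled libraries, against 11.8% of all genes tested in that direction. The smallest p-values belonged to F13a1, the factor XIII subunit of resident macrophages (log2 fold change -0.69, SE 0.07, adjusted p = 0.00253), Ncf1, a subunit of the phagocyte oxidase (-1.08, SE 0.15, adjusted p = 0.00505), and Inpp5d, the leukocyte lipid phosphatase SHIP1 (-0.73, SE 0.12, adjusted p = 0.00753), each kept without any one library. Of 24 further T, B and NK genes only 5 could be tested, of which Cd2 reached the filter level only in the Ctrl-labelled libraries and did not pass. Thy1, which fibroblasts also carry, was lower (-0.76, SE 0.18, adjusted p = 0.0243), as was the T cell kinase Zap70 (-1.41, SE 0.39, adjusted p = 0.0386), whereas Cd247, the zeta chain of the T cell receptor, was higher in the cKO-labelled libraries (1.29, SE 0.34, adjusted p = 0.0337). At least 4 of the 6 leave-one-out fits lost each of these 3 calls. Of 11 further neutrophil genes 2 were tested. Csf3r, the receptor for the neutrophil growth factor G-CSF, overlapped between the groups and did not pass (-0.63, SE 0.42, adjusted p = 0.316). Padi4 reached the filter level only in the Ctrl-labelled libraries, so it had to differ to be tested at all, and its values are a description: 15, 12 and 17 against 2, 5 and 1 counts.

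Markers of other cells in muscle moved with these genes in part. Of 12 markers of fibro-adipogenic progenitors, the connective tissue cells between fibres, 8 were lower in the cKO-labelled libraries, with a median of -0.29. Of these, 4 passed, against 11.8% of all genes tested in that direction. No marker passed as higher (0 also at an unadjusted p under 0.05 in edgeR and in DESeq2's Wald test). The summed level of the progenitor markers was 2983 to 3067 CPM against 2122 to 3032, of which Gsn, the marker with the most counts, was one part (1227 to 1434 against 1036 to 1109 CPM, adjusted p = 0.0528). Ly6a (log2 fold change -1.13, adjusted p = 0.00521), Dpt (-0.58, adjusted p = 0.00620) and Lum (-0.72, adjusted p = 0.0145) were those with the smallest p, of which Lum was lost without Ctrl 2 (adjusted p = 0.0526). None of 8 endothelial markers passed in edgeR's test (1 at an unadjusted p under 0.05, and 0 in DESeq2's Wald test), with a median of -0.10, a sum of 488 to 526 against 454 to 467 CPM and Cdh5 at 117 to 123 against 115 to 124 CPM. For blood, 6 of 9 red cell genes, the globin genes, are listed at 0 in every library, and Alas2, of haem synthesis, was at 3.97 to 8.76 against 5.56 to 7.18 CPM. Muscle fibre genes summed to 116274 to 135722 against 164550 to 211120 CPM. Of the 13, 5 passed as higher and 3 as lower in the cKO-labelled libraries, against 12.6% and 11.8% of all genes tested. Tnnt3, Pvalb and Myh4, of fast fibres, had the smallest p among them (log2 fold changes of 0.76, 1.44 and 1.46), and 2 or 3 of the 6 fits without a library lost each of these calls. The 3 that passed as lower were named after their values were seen. They were Tnnt1 of slow fibres (-2.70, SE 0.79, adjusted p = 0.0450) and the myosins Myh2 (-1.23, SE 0.34, adjusted p = 0.0392) and Myh1 (-0.93, SE 0.25, adjusted p = 0.0341) of IIa and IIx fibres, each lost in 4 of those fits. The slow-fibre genes Myh7 (-2.30, SE 0.79, adjusted p = 0.0742) and Tnni1 (-2.53, SE 0.79, adjusted p = 0.0557) did not pass, although their groups did not overlap. The part of the fibre and connective tissue genes in the lower levels of macrophage and C1q genes was not tested.

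Within the labelled groups, some libraries were often the highest or the lowest over the members, an order that was not counted for all genes. Ctrl 3 was the highest of its group for 26 of the 34 tested members and Ctrl 1 and Ctrl 2 the lowest for 15 each. Among the cKO-labelled libraries, cKO 2 was the highest for 22 and cKO 1 the lowest for 23. The exceptions included Cd163, Lyve1 and Lgals3, described above. Replicates of a group have no order, and these counts only show which libraries set the spread behind the standard errors.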

How the data were processed

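RNA was extracted from GP muscle and mRNA libraries were sequenced paired-end, 1 mouse per library, 3 per labelled group. The authors deposited whole-number counts per gene without normalization. Reads were trimmed with Trimmomatic 0.39, aligned to mm10 with HISAT2 2.1.0 and counted with featureCounts 1.6.2. The annotation, the strand setting and the treatment of reads that match several copies are not given in the sources used here.

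Counts were analysed in R 4.3.3 with edgeR 4.0.16 (TMM, filterByExpr, glmQLFit, glmQLFTest, Benjamini-Hochberg adjustment over 14180 genes with all libraries). A standard error was derived from the log2 fold change and the F statistic. Calls used an adjusted p under 0.05, with and without a fold over 2. The study's own tool was DESeq. The code was tested on simulated data. Libraries held 33860001 to 48839910 counts. Positions, exon overlaps and exon lengths come from GENCODE M21 (GRCm38, the build also called mm10) and promoters from RefSeq (GRCm38.p6). Overlaps were counted between exons, and levels were compared between genes only per kb of merged exons.

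Members and lists were chosen with earlier results of these data known. Members that passed are given per library, as are Ptprc, Adgre1, Csf1r, Itgam, Cd163, C1qa, C3, Cd3e and S100a8. Of each other list, up to 3 called genes with the smallest p are named, with the highest gene of the red cell, progenitor and endothelial lists. Other lists covered mast cells, dendritic cells and proliferation. Alternatives were normalization by DESeq2's size factors or by total counts, testing all genes with a count, requiring 10 counts in each library, the Wald test of DESeq2 1.42.0, the replicate number as a block, robust estimation and leaving out each library.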

Additional observations from a re-analysis of the deposited data

How the results depend on the processing

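Of 24 members that passed, the same 9 did so in the main analysis and in all 13 alternatives that tested them. With the replicate number as a block 15 passed (6.85% of all genes in that direction), but same-numbered libraries did not deviate together (r of 0.08, -0.21 and -0.002), so the numbers were not taken as pairs. Leaving out 1 library gave 11 to 28 members past the adjusted p (5.46% to 12.5% of all genes in that direction) and 4 to 17 past a fold of 2 as well (2.75% to 4.75%), and total counts gave 23 past both. The causes were not tested. For all genes past both limits, total counts gave 1023 higher in the libraries labelled Ctrl and 157 higher in those labelled cKO, against 556 and 302. Of the 34 members only Aif1 turned, with -0.55 (without Ctrl 2) to 0.34 (without Ctrl 3). The median of the members ran from -1.14 with total counts to -0.76 without cKO 1. With 3 libraries per group no single value could be tested below p = 0.1 by permutation, and the lymphocyte members in the tables did not reach the expression filter. Labels say that libraries come from separate mice.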

Other observations

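Other blood-derived cells gave values too. Among all genes tested, 11.8% passed as lower in the libraries labelled cKO, the share to set beside each count below. Mast cells sit in the connective tissue of muscle. Of 5 tested mast cell markers, 4 were lower in the libraries labelled cKO and 2 passed. These 2 were Cpa3, the mast cell carboxypeptidase, at 4.75, 3.55 and 4.57 against 2.29, 2.62 and 2.36 CPM (log2 fold change -0.82, SE 0.17, adjusted p = 0.0149), and the tryptase Tpsb2 (-0.67, SE 0.19, adjusted p = 0.0424). Leaving out a library lost the call in 3 of 6 fits for Cpa3 and in 5 of 6 for Tpsb2. Of 6 dendritic cell markers tested, 1 of which (Xcr1) reached the filter level only in the Ctrl-labelled libraries, Cd209a passed, at 3.37, 3.31 and 3.72 against 0.847, 2.08 and 1.41 CPM (-1.26, SE 0.30, adjusted p = 0.0245), and 4 of 6 such fits lost that call. Proliferation genes were low, with 3.91 to 7.02 CPM in sum against 1.61 to 4.23, and of 5 tested, 1 of which (Birc5) reached the filter level only in the Ctrl-labelled libraries, 1 passed: Rrm2, a subunit of ribonucleotide reductase, at 2.96, 2.51 and 1.48 against 0.621, 0.857 and 0.863 CPM (-1.56, SE 0.31, adjusted p = 0.0131, or 0.0507 without cKO 1).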
